A study of Mus musculus with 4 samples.

Results

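Matrix metalloproteinases (Mmp), ADAMTS proteases (Adamts) and tissue inhibitors of metalloproteinases (Timp) were followed in the mouse hippocampus after an ischemic injury. The set was chosen by gene symbol alone and holds 45 of the 22609 genes listed: 23 Mmp genes, 19 Adamts genes, and Timp2, Timp3 and Timp4. Libraries came from 2 genotypes on a C57BL/6 background, 2 from PELP1 FBKO mice (a forebrain knockout of the estrogen receptor co-regulator PELP1) and 2 from FLOXED mice. Every animal was ovariectomized, carried an estradiol (E2) mini pump, underwent global cerebral ischemia (GCI, a transient arrest of blood flow to the brain) and was killed after 24 h of reperfusion. The sources used here give neither the Cre line nor the deleted exons nor the number of animals behind a library. With no group lacking ischemia or estradiol, the comparison addresses only how the genotypes differ under both.

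Mmp and ADAMTS enzymes are zinc-dependent proteases that cut proteins of the extracellular matrix and of the cell surface. Most are made as inactive precursors and are held in check by the Timp proteins, which bind the active site. In the brain they are known for cutting the proteoglycans of perineuronal nets, for remodelling synapses, and for opening the basement membrane of vessels after ischemia.

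Reads assigned to genes ranged from 17524594 to 22447658 per library. Pelp1 itself had 396 and 353 reads in PELP1 FBKO, against 468 and 569 in FLOXED, with an adjusted p of 0.130 over all genes by edgeR's quasi-likelihood test (log2 fold change -0.59). No gene passed an adjusted p of 0.05 in that test (0% of 14978 tested), while 15.6% had an unadjusted p under 0.05, 10.1% higher and 5.55% lower in PELP1 FBKO. Neuronal markers marked the tissue, with a summed level between 9807 and 12230 CPM, the read count relative to the TMM-scaled library size. Because these are bulk samples, fewer cells of a type and less RNA per cell cannot be told apart. The series text speaks of runs in duplicate and no source states that paired libraries are different animals, so the spread behind each p-value may be technical only.

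On mouse chromosome 9, 10 of the Mmp genes lie in a run, with at most 3 other protein-coding genes between neighbours, and the promoters of most of them hold a sequence not found in those of the other set members. The AP-1 motif, bound by Fos and Jun dimers, was searched as TGANTCA on both strands in RefSeq windows of 300 bases (250 before and 50 after a transcription start, GRCm38.p6). It was present in 8 of these 10 genes (Mmp1a, Mmp1b, Mmp3, Mmp7, Mmp10, Mmp12, Mmp13 and Mmp20) and in 0 of the 21 other set members with a window. Counted by window and not by gene, 8 of the 34 windows of set members held it, beside 7.81% of all 32851 windows. The same 8 genes and Mmp8 also held TATAAA, found in 13.6% of all windows. Stretches of 80 bases are shown for the 4 neighbours with both an AP-1 match and at least 1 read, since they include Mmp12 and Mmp3, the only members of the cluster with enough reads to test. Capitals mark the AP-1 and TATAAA letters, and each line reads 5′ to 3′ on the plus strand of GRCm38.p6.
Mmp13, chr9:7272459-7272538: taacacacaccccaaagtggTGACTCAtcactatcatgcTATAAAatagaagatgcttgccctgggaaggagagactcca
Mmp12, chr9:7347310-7347389: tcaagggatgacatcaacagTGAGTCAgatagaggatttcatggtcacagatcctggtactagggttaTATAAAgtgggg
Mmp3, chr9:7445756-7445835: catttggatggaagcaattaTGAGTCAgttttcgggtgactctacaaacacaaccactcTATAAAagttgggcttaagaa
Mmp10, chr9:7502259-7502338: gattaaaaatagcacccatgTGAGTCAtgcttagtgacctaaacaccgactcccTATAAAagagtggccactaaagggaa

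The AP-1 match lay 35 bases before the RefSeq start in Mmp13, 44 in Mmp12, 46 in Mmp3 and 63 in Mmp10. The TATAAA letters lay 16 bases before that start in Mmp13, 7 in Mmp3 and 29 in Mmp10, and 4 bases after it in Mmp12. Whether they act as a TATA box was not tested. Mmp12 has another RefSeq start, whose window held neither motif. The full palindromic estrogen response element, searched because all animals received estradiol, was in 0 of the 31 set members with a window and in 0.07% of all windows. The absence of these letters says nothing about the factor.

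The promoters of Timp3 and Adamts1 are shown for contrast, since these are the Timp gene with the smallest p and the most abundant Adamts gene per transcript length. Neither holds an AP-1 match. Capitals mark the GC box GGGCGG on either strand, present in 35.7% of all windows, and TATAAA. The Timp3 line lies on the plus strand and the Adamts1 line on the minus strand of GRCm38.p6, both written 5′ to 3′ along the gene.
Timp3, chr10:86300162-86300461: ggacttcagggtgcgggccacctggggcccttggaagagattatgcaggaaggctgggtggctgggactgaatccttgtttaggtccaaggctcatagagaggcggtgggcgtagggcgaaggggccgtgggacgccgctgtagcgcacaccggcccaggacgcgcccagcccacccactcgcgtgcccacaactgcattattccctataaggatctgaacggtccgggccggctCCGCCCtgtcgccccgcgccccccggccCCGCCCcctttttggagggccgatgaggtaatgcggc
Adamts1, chr16:85803064-85803363: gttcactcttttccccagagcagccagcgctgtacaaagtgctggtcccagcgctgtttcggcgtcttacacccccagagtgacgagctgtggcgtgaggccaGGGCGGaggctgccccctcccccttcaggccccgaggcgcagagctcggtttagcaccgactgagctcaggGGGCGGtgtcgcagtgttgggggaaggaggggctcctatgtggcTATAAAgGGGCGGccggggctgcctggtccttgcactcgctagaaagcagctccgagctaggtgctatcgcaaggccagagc

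Per kilobase of transcript, the set was dominated by a few genes. Levels between genes are given as RPKM, the CPM divided by the length in kilobases of the longest transcript. Timp2 was the most abundant at 103 and 113 RPKM in PELP1 FBKO, against 79.4 and 87.9 in FLOXED. The membrane-type enzyme Mmp17, anchored to the cell surface by a lipid, followed at 43.3 and 32.4 RPKM in PELP1 FBKO, against 52.7 and 45.5 in FLOXED. Timp3, Mmp24, Adamts1 and Timp4 came next, with means over the 4 libraries of 25.9, 11.2, 10.2 and 7.498 RPKM. Timp2 lay above Mmp17 in each library, whereas Timp3 exceeded Mmp17 in PELP1 FBKO 2 (34.4 against 32.4 RPKM) and was below it in the other 3. Mmp24, Adamts1 and Timp4, at neighbouring ranks, overlapped across libraries. From Mmp14 down to Mmp15 another 6 genes averaged between 3.15 and 4.37 RPKM, and neighbours in that order overlapped. The gelatinases Mmp2 and Mmp9, the enzymes most often studied in stroke, averaged 0.788 and 0.794 RPKM.

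**Figure D1:**
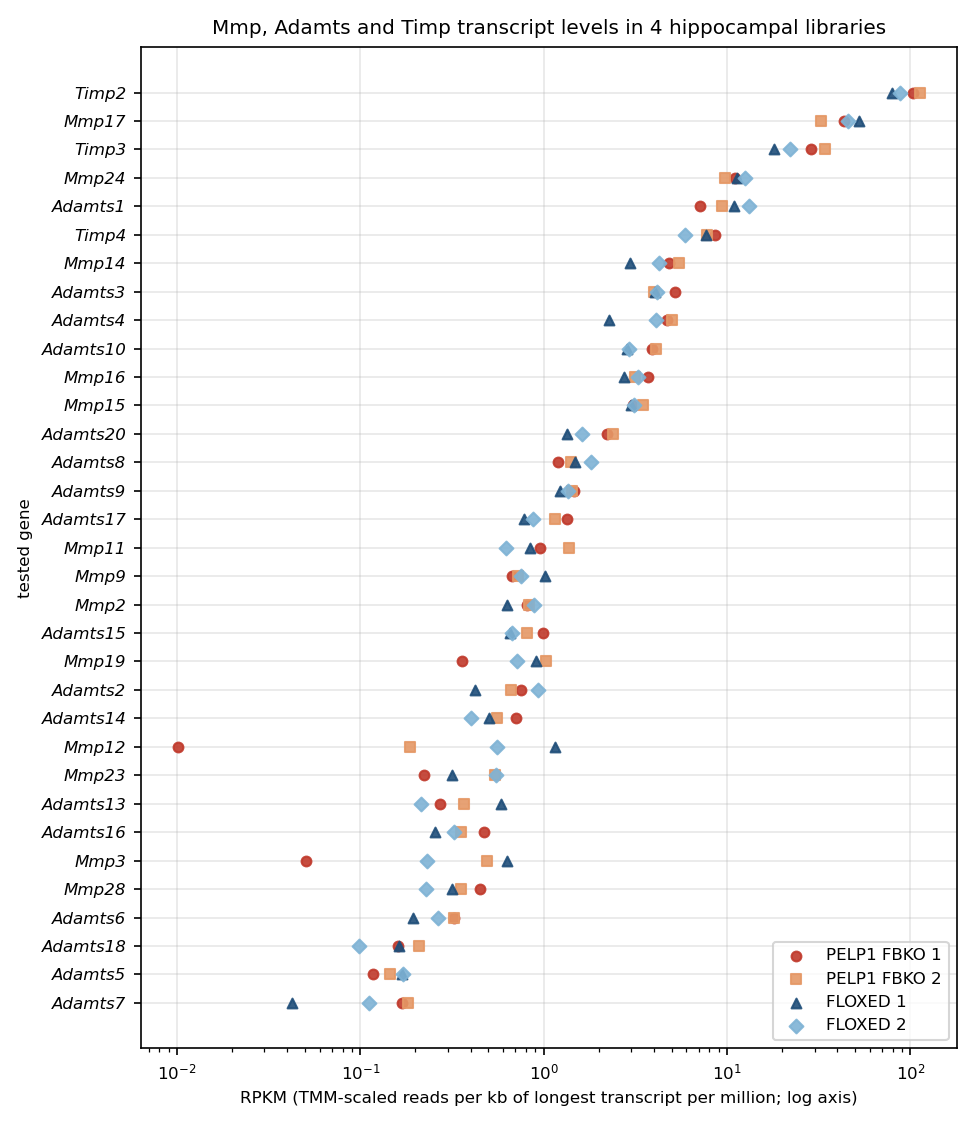
RPKM of each tested gene (rows, ordered by mean) in the 4 libraries on a log axis, with PELP1 FBKO in red and orange and FLOXED in dark and light blue. Timp2 (mean 95.8 RPKM) and Adamts7 (0.126 RPKM) mark the ends of the range, and Mmp12 and Mmp3 show the widest spread, with PELP1 FBKO 1 lowest for both.

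The remaining 12 genes fell below the count filter, among them every collagenase (Mmp1a, Mmp1b, Mmp8 and Mmp13) and the matrilysin Mmp7. Mmp1a, Mmp1b, Mmp7 and Mmp20 were at 0 reads throughout. Taking 3 reads as the floor, a level of up to 0.171 CPM stays possible in the shallowest library, for counting error only. Mmp8, Mmp10, Mmp13, Mmp21, Mmp25, Mmp27, Adamts12 and Adamts19 had between 1 and 16 reads in the 4 libraries together. Mmp13, a collagenase, had 1 and 3 reads in PELP1 FBKO, against 3 and 5 in FLOXED. Adamts12, which cuts cartilage oligomeric matrix protein, had 5 and 5 reads in PELP1 FBKO, against 1 and 1 in FLOXED.

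Of the 33 genes tested, 0 passed an adjusted p of 0.05 by edgeR's quasi-likelihood test. At an unadjusted p under 0.05 there were 9, or 27.3%, made up of 7 higher (Timp2, Timp3, Adamts4, Adamts10, Adamts17, Adamts20 and Mmp14) and 2 lower (Adamts1 and Mmp12) in PELP1 FBKO, beside 15.6% of all genes tested. DESeq2 called 1, Timp3 (higher), beside 3.09% of the genes it tested, 2.2% higher and 0.895% lower. At an adjusted p of 0.10 edgeR again called 0 of the set and 1.96% of all genes. The groups did not overlap in 23 genes, 16 higher and 7 lower in PELP1 FBKO, which is 69.7%, beside 48.4% of all genes tested (25.4% higher and 23% lower). The median log2 fold change (PELP1 FBKO over FLOXED) was 0.18, beside 0.00015 over all genes. With 2 libraries against 2, an exact two-sided permutation test cannot go below p = 0.333. For 14 genes the 95% interval of the difference lay within 1 on the log2 scale in either direction, so a 2-fold difference lay outside those intervals, and for the other 19 it did not.

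**Figure D2:**
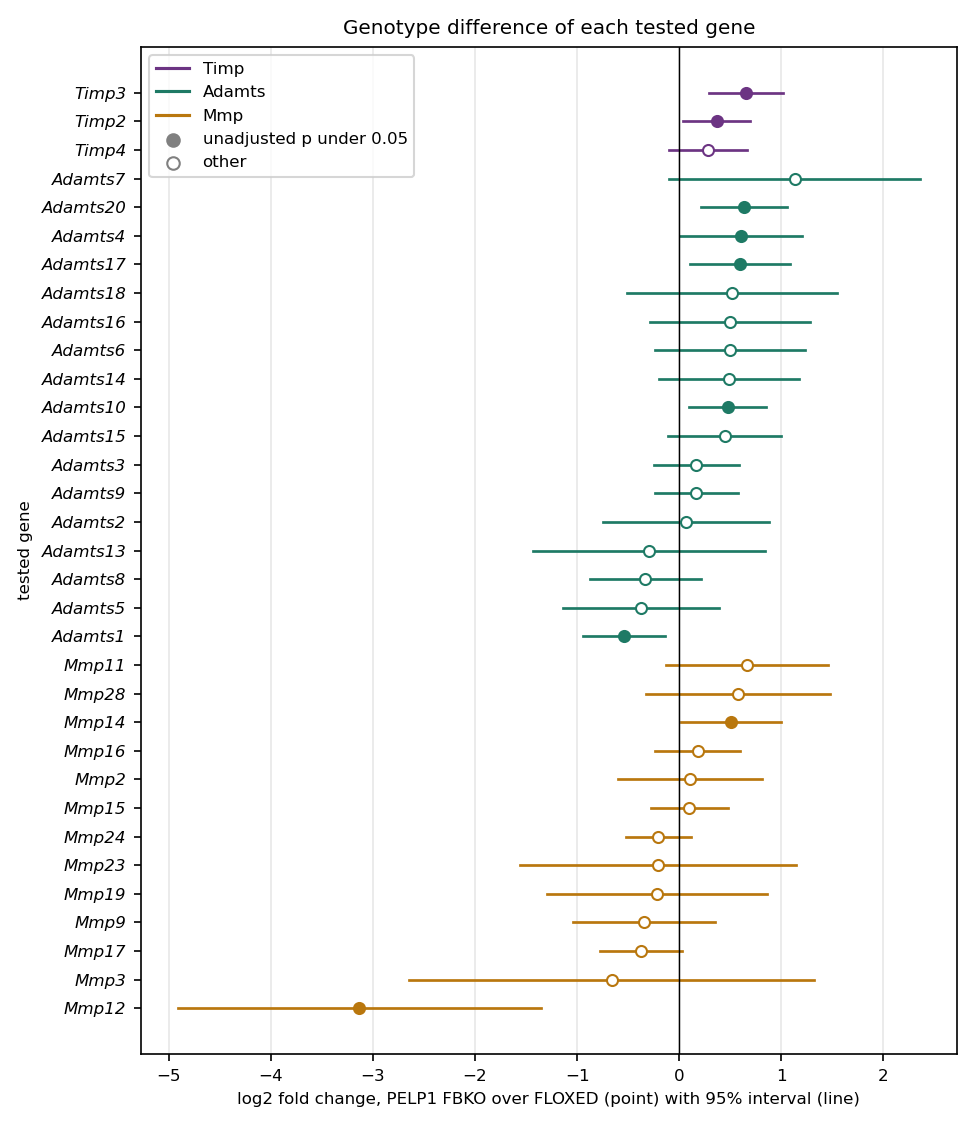
Log2 fold change of each tested gene, PELP1 FBKO over FLOXED (points, filled where the unadjusted p was under 0.05), with its 95% interval (lines), by family. The 3 Timp genes and 13 of 17 Adamts genes lie right of 0, and Mmp12 lies farthest left at -3.13.

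The 3 inhibitors of the set were on the higher side in PELP1 FBKO. Timp3, which binds to the matrix and also inhibits ADAM and ADAMTS enzymes, was at 136 and 163 CPM in PELP1 FBKO, against 85.3 and 105 CPM in FLOXED. Both PELP1 FBKO libraries lay above both FLOXED libraries, with a log2 fold change of 0.65 (SE 0.156, unadjusted p = 0.00310 and adjusted p = 0.117 by edgeR's quasi-likelihood test, and adjusted p = 0.0139 by DESeq2). Over 11 alternative settings its adjusted p lay between 0.0139 and 0.369.

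Timp2, which inhibits Mmp enzymes and also helps Mmp14 to activate Mmp2, was at 383 and 418 CPM in PELP1 FBKO, against 294 and 326 CPM in FLOXED. Its groups did not overlap either, and the log2 fold change was 0.37 (SE 0.142, edgeR adjusted p = 0.269). Timp4, an inhibitor abundant in brain and heart, was at 47.5 and 42.9 CPM in PELP1 FBKO, against 42.1 and 32.3 CPM in FLOXED, a difference of 0.28 (SE 0.165, edgeR adjusted p = 0.453) in which the nearest libraries of the genotypes were almost level. In mouse RefSeq the span of Timp3 overlaps Syn3 and that of Timp4 overlaps Syn2, and the counting was not stated to use strand. Syn3 was at 31.0 and 26.8 CPM in PELP1 FBKO, against 22.5 and 36.0 CPM in FLOXED, and Syn2 likewise overlapped between genotypes (log2 fold change -0.05).

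Timp1 lies outside the set and was looked up after the values of the others were seen. It had 19 and 509 reads in PELP1 FBKO, against 583 and 634 in FLOXED, so that a single library, PELP1 FBKO 1, stood far below the other 3 (log2 fold change -1.28, SE 0.932, edgeR adjusted p = 0.547). The direction of Timp2, Timp3 and Timp4 is therefore not that of every Timp gene in these libraries.

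**Figure D3:**
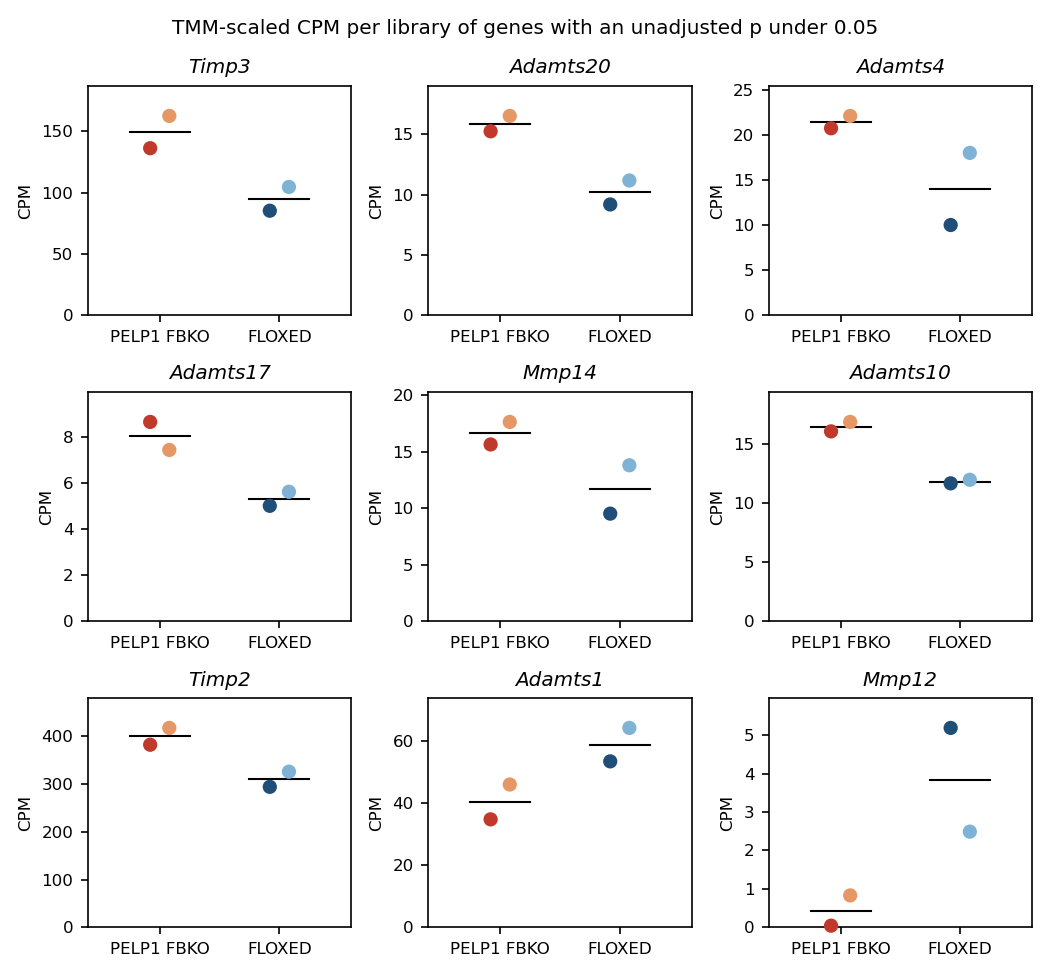
TMM-scaled CPM of the 9 genes with an unadjusted p under 0.05, per library (points) with the mean of each genotype (bars); PELP1 FBKO is left of FLOXED and each axis starts at 0. In each panel the genotypes do not overlap, and FLOXED 1 is the lower FLOXED library in all panels except that of Mmp12.

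The hyalectanases, ADAMTS enzymes that cut aggrecan, brevican and versican, did not point one way. Adamts1, the most abundant, was at 34.8 and 46.0 CPM in PELP1 FBKO, against 53.5 and 64.2 CPM in FLOXED. It was lower in both PELP1 FBKO libraries, with a log2 fold change of -0.54 (SE 0.174, unadjusted p = 0.0143 and adjusted p = 0.198 by edgeR's quasi-likelihood test). Adamts4 was at 20.8 and 22.1 CPM in PELP1 FBKO, against 10.03 and 18.03 CPM in FLOXED. The groups did not overlap, but the log2 fold change of 0.61 (SE 0.259, edgeR adjusted p = 0.314) was 0.25 without FLOXED 1 and 1.08 without FLOXED 2.

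Adamts20, which cuts versican and is known from pigment defects in mice, was at 15.2 and 16.5 CPM in PELP1 FBKO, against 9.18 and 11.2 CPM in FLOXED. Both PELP1 FBKO libraries were higher, by 0.64 on the log2 scale (SE 0.183, edgeR adjusted p = 0.161). Adamts9 and Adamts15 also had non-overlapping groups on the higher side (0.17 and 0.45), and Adamts5 and Adamts8 on the lower side (-0.37 and -0.33), with edgeR adjusted p between 0.414 and 0.695 for these 4. The ratio of Adamts4 to Adamts1, each per transcript length, was 0.664 and 0.535 in PELP1 FBKO, against 0.209 and 0.312 in FLOXED. Since Adamts4 was higher and Adamts1 lower in both PELP1 FBKO libraries, this ratio could not overlap between genotypes. Adamts1 made up 22.9% and 28.9% of all Adamts RPKM in PELP1 FBKO, against 39.2% and 39.7% in FLOXED.

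The other ADAMTS genes were mostly on the higher side in PELP1 FBKO. Adamts10, which acts on fibrillin microfibrils, was at 16.1 and 16.9 CPM in PELP1 FBKO, against 11.7 and 11.99 CPM in FLOXED. The libraries of each genotype were close to each other, and the log2 fold change was 0.48 (SE 0.164, edgeR adjusted p = 0.225). Its relative Adamts17 was at 8.66 and 7.44 CPM in PELP1 FBKO, against 5.02 and 5.63 CPM in FLOXED, a difference of 0.60 (SE 0.213, edgeR adjusted p = 0.241). Adamts6, Adamts16 and Adamts18 had log2 fold changes between 0.50 and 0.52, with groups that overlapped in Adamts18.

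Among the procollagen N-propeptidases, Adamts3, which also cuts reelin, was at 20.4 and 15.8 CPM in PELP1 FBKO, against 15.9 and 16.3 CPM in FLOXED. These groups overlapped (log2 fold change 0.17, 95% interval -0.25 to 0.59). Adamts2 overlapped as well (0.06), while Adamts14 did not (0.49). Adamts7, which like Adamts12 cuts cartilage oligomeric matrix protein, had only 20 and 20 reads in PELP1 FBKO, against 4 and 13 in FLOXED (log2 fold change 1.13, SE 0.532, edgeR adjusted p = 0.357). That value was 0.65 without FLOXED 1 and 2.01 without FLOXED 2. Adamts13, which cuts von Willebrand factor and so limits clotting in small vessels, was at 1.22 and 1.67 CPM in PELP1 FBKO, against 2.62 and 0.968 CPM in FLOXED, and its direction (-0.29) turned to 0.57 without FLOXED 1.

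Over the Adamts family the log2 fold change was positive in 13 of 17 tested genes and its median was 0.48, and the median was 0.27 with 11 positive without PELP1 FBKO 1. Over all genes tested, 50% had a positive log2 fold change. In the Mmp family 6 of 13 were positive and the median was -0.20. That median turned positive without FLOXED 2 (0.11), without PELP1 FBKO 1 (0.17), and over the 10 genes with at least 10 reads in every library (0.11). No scaling alternative changed the number of positive genes in either family.

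Mmp12, the macrophage elastase, showed the widest gap. It had 1 and 17 reads in PELP1 FBKO, against 91 and 54 in FLOXED, which is 0.0453 and 0.832 CPM in PELP1 FBKO, against 5.19 and 2.49 CPM in FLOXED. Both PELP1 FBKO libraries were lower, with a log2 fold change of -3.13 (SE 0.770, 95% interval -4.91 to -1.36, unadjusted p = 0.00359 and adjusted p = 0.1248 by edgeR's quasi-likelihood test). The size rested on PELP1 FBKO 1, since the log2 fold change was -2.20 without that library and -6.21 without PELP1 FBKO 2. DESeq2 did not call it (adjusted p = 0.372), and over 10 alternative settings its adjusted p lay between 5.48e-12 and 0.462.

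Mmp3, a stromelysin of the same run on chromosome 9, had 2 and 18 reads in PELP1 FBKO, against 20 and 9 in FLOXED. Here the groups overlapped, PELP1 FBKO 1 was again the lowest library, and the log2 fold change of -0.66 (SE 0.860) turned to 0.20 without it. Summed over the 10 neighbouring Mmp genes there were 4 and 43 reads in PELP1 FBKO, against 117 and 69 in FLOXED, and most of those in FLOXED were from Mmp12. Among microglial markers the log2 fold change was positive in all 11 (median 0.30, and 0.09 without PELP1 FBKO 2), beside 50% of genes tested. The groups did not overlap in 5 of them, or 45.5%, beside 48.4% of all genes tested. Csf1r, the receptor that maintains microglia, had the smallest p of that list. It was at 166 and 177 CPM in PELP1 FBKO, against 90.8 and 104 CPM in FLOXED. The part of microglia in the Mmp12 difference was not tested. Markers of neutrophils and blood monocytes summed to between 1.68 and 2.57 CPM, only 2 of 9 listed (S100a9 and Mpo) had enough reads to test, and Elane was at 0.

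The membrane-type enzymes carried nearly all Mmp transcripts. Mmp17 was at 278 and 208 CPM in PELP1 FBKO, against 339 and 292 CPM in FLOXED. The groups did not overlap, with a log2 fold change of -0.38 (SE 0.175, edgeR adjusted p = 0.353). Mmp24, an enzyme of neurons that cuts cadherins, was at 47.8 and 41.9 CPM in PELP1 FBKO, against 49.0 and 54.1 CPM in FLOXED (-0.20, edgeR adjusted p = 0.520).

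Mmp14, the activator of Mmp2, was at 15.6 and 17.6 CPM in PELP1 FBKO, against 9.52 and 13.8 CPM in FLOXED. It was higher in both PELP1 FBKO libraries, with a log2 fold change of 0.51 (SE 0.213, edgeR adjusted p = 0.305) that was 0.27 without FLOXED 1 and 0.79 without FLOXED 2. Mmp15 and Mmp16 overlapped between genotypes, with log2 fold changes of 0.10 (95% interval -0.28 to 0.48) and 0.18 (-0.23 to 0.60).

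Neither gelatinase had an unadjusted p under 0.05. Mmp9 had 47 and 47 reads in PELP1 FBKO, against 57 and 52 in FLOXED, and its log2 fold change was -0.34 (95% interval -1.04 to 0.35), without overlap between the groups. Mmp2 had 55 and 52 reads in PELP1 FBKO, against 34 and 59 in FLOXED, and these overlapped, with a log2 fold change of 0.10 (95% interval -0.60 to 0.81). Mmp11, a stromelysin activated inside the cell by furin, had a log2 fold change of 0.66 and Mmp28 0.58, each with groups that did not overlap, and Mmp19 (-0.22) and Mmp23 (-0.21) overlapped, with edgeR adjusted p between 0.402 and 0.903 for these 4.

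**Figure D4:**
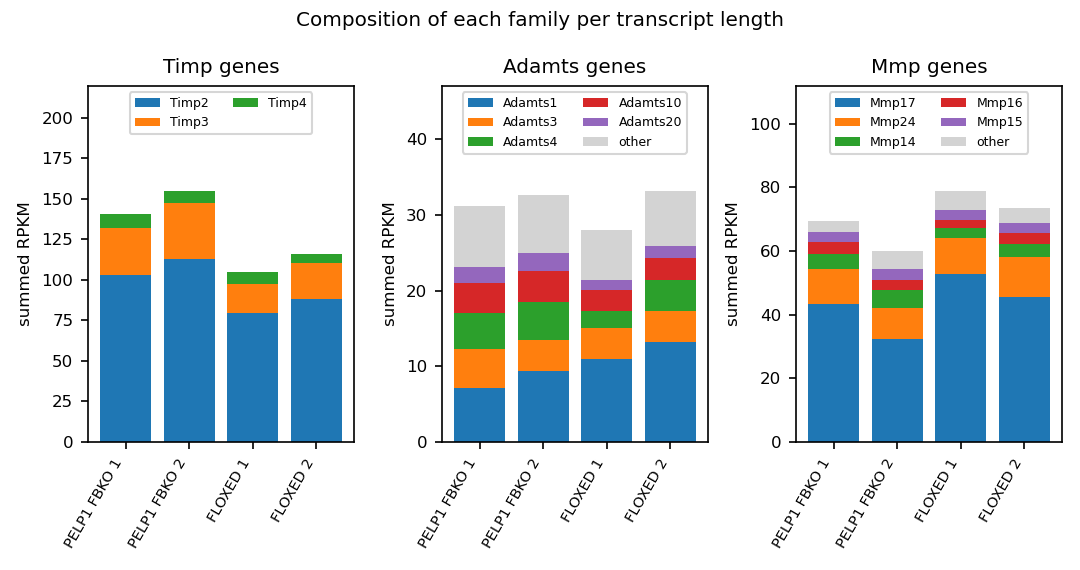
Summed RPKM of each family per library, with PELP1 FBKO left of FLOXED, split into up to 5 most abundant genes and the other genes. Timp totals (Timp2, Timp3 and Timp4, without Timp1) are 141 and 155 in PELP1 FBKO, against 105 and 116 in FLOXED. Mmp totals are 69.6 and 60.01 in PELP1 FBKO, against 78.9 and 73.5 in FLOXED.

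The 3 inhibitors of the set and the Mmp enzymes, each summed, stood in opposite order between genotypes. The summed RPKM of Timp2, Timp3 and Timp4 divided by that of all Mmp genes was 2.02 and 2.58 in PELP1 FBKO, against 1.33 and 1.58 in FLOXED. Since this Timp total was higher and the Mmp total lower in both PELP1 FBKO libraries, the ratio could not overlap between genotypes. The ratio rests mainly on Timp2 and Mmp17, since Timp2 made up between 72.7% and 75.8% of the Timp total of the set and Mmp17 between 54.1% and 66.9% of the Mmp total. The separation of the Timp totals depended on leaving out Timp1. That gene was at 37.6 and 33.1 RPKM in FLOXED, against 28.2 RPKM in PELP1 FBKO 2 and far less in PELP1 FBKO 1. With Timp1 added, the Timp totals overlap between genotypes, with PELP1 FBKO 1 the lowest library. The ratio to the Mmp total is then almost level between PELP1 FBKO 1 and FLOXED 2. A shifted balance of all Timp genes to Mmp genes is therefore not shown. Adamts totals overlapped, at 31.2 and 32.6 RPKM in PELP1 FBKO, against 27.95 and 33.2 RPKM in FLOXED.

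Genes that act with these enzymes were read from the same fit in 5 lists, where 0 genes passed the adjusted threshold by edgeR. By unadjusted p under 0.05 the lists held between 22.7% and 50% of their tested genes in either direction, beside 15.6% of all genes. The lists were chosen with earlier results of these data known, so these shares only describe the lists. Among 22 tested matrix substrates and proteoglycans, 5 were higher and 0 were lower by unadjusted p under 0.05 (median log2 fold change 0.24, and 0.09 without FLOXED 1 or 0.40 without FLOXED 2), and DESeq2 called 3 higher. Lama2, a laminin chain of basement membranes, was at 16.8 and 19.1 CPM in PELP1 FBKO, against 7.13 and 7.93 CPM in FLOXED (1.25, SE 0.181, edgeR adjusted p = 0.0566), and Hapln2, a link protein at nodes of Ranvier, had 0.87 (adjusted p = 0.0983). Among 11 other inhibitors and clearance receptors, 4 were higher and 1 lower (median 0.35, and 0.15 without FLOXED 1 or 0.55 without FLOXED 2). DESeq2 called 0 of these. They include Reck, a membrane-anchored inhibitor of Mmp enzymes, at 11.5 and 10.4 CPM in PELP1 FBKO, against 6.96 and 6.92 CPM in FLOXED (0.66, SE 0.187, edgeR adjusted p = 0.160), and the proteoglycan gene Spock3 (0.47).

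Of 17 ADAM and ADAMTS-like genes, 3 were higher and 1 was lower by unadjusted p under 0.05 (median 0.08, and 0.04 without FLOXED 1 or 0.23 without FLOXED 2). Over all genes tested, 10.1% were higher and 5.55% lower at that threshold. Adamtsl4, which binds fibrillin microfibrils without cutting them, was at 11.4 and 15.0 CPM in PELP1 FBKO, against 5.07 and 6.27 CPM in FLOXED (1.22, SE 0.224, edgeR adjusted p = 0.0766), while Adam8, a protease of leukocytes and activated microglia, was at 2.58 and 3.82 CPM in PELP1 FBKO, against 7.53 and 6.46 CPM in FLOXED (-1.13, SE 0.268, edgeR adjusted p = 0.117). DESeq2 called Adamtsl4 alone among them, beside 2.2% higher and 0.895% lower of all genes it tested. Of 12 activators and serine proteases, 2 were higher and 4 lower (median -0.13, and -0.31 without PELP1 FBKO 2), and DESeq2 called the proprotein convertase gene Pcsk6 (1.05) and the kallikrein genes Klk7 (-2.85) and Klk8. Of 16 binding partners and inducers, 1 was higher and 3 lower. The median was -0.16, but it turned to 0.07 without PELP1 FBKO 1 and was -0.39 without PELP1 FBKO 2. Thbs2, the thrombospondin gene whose product clears Mmp2, was at 12.6 and 14.8 CPM in PELP1 FBKO, against 4.10 and 4.84 CPM in FLOXED (1.61, SE 0.207, edgeR adjusted p = 0.0501), and Junb, a subunit of AP-1, had -0.46. DESeq2 called Thbs2 of this list.

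Summed levels of markers of several cell types also differed between the genotypes, and their part in the differences above was not tested. The counts of positive markers below stand beside 50% of all genes tested. Summed levels were 206 and 236 CPM in PELP1 FBKO, against 144 and 175 CPM in FLOXED, for 9 mural cell markers (9 with a positive log2 fold change), and 251 and 333 CPM, against 179 and 228 CPM in FLOXED, for 10 meningeal fibroblast markers (9 positive). Endothelial markers summed to 283 and 284 CPM in PELP1 FBKO, against 175 and 243 CPM in FLOXED (10 of 11 positive). Astrocyte markers came to 7757 and 9703 CPM in PELP1 FBKO, against 6091 and 6866 CPM in FLOXED (10 of 10 positive), and oligodendrocyte markers to 6214 and 6681 CPM, against 3130 and 4007 CPM in FLOXED (11 of 11 positive). All 8 tested markers of oligodendrocyte precursors were positive too, with a median of 0.29. CA1 pyramidal neuron markers summed to 540 and 455 CPM in PELP1 FBKO, against 700 and 807 CPM in FLOXED (0 of 7 positive), and 5 of 9 markers of neurons in general were positive. Choroid plexus markers, led by transthyretin, ranged from 51.9 to 353 CPM with FLOXED 1 highest, and 2 of 5 tested were positive. At least 1 marker of each list had reads, and apart from Elane no marker was at 0 in every library.

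FLOXED 1 was the lowest of the 4 libraries in 16 of the 33 tested genes, beside 33.4% over all genes tested, and it had the largest share of alignments without a unique place (47.7%, against 38.5% to 41.5% in the others). PELP1 FBKO 1 was the lowest in 8 of the 33, among them Mmp12 and Mmp3, beside 26.1% over all genes tested.

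**Figure D5:**
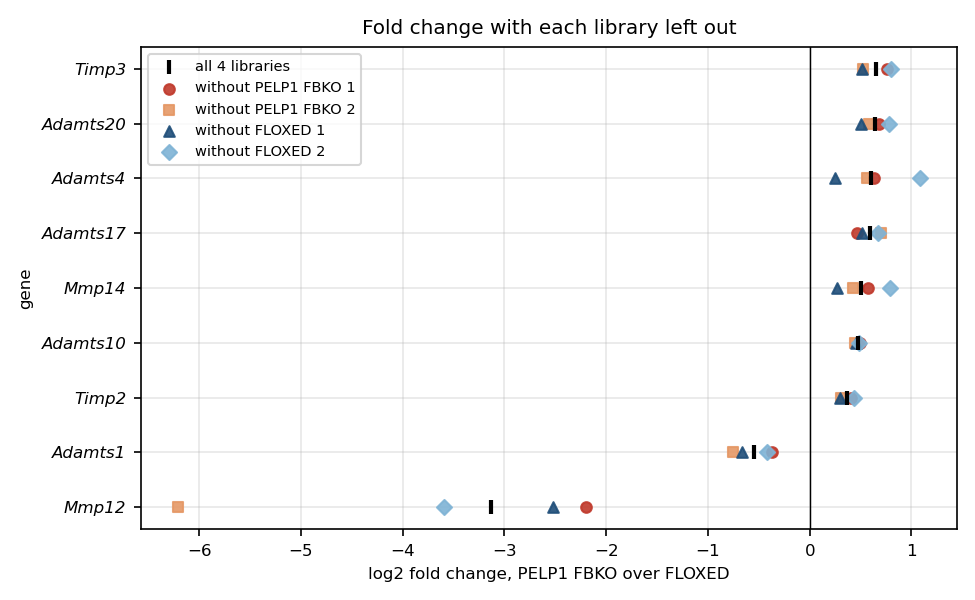
Log2 fold change, PELP1 FBKO over FLOXED, of the 9 genes with an unadjusted p under 0.05, with all 4 libraries (black bars) and with each library left out (symbols). Because the groups of these genes do not overlap, no point could cross 0; Adamts4 spans 0.25 to 1.08, and Mmp12 spans -6.21 to -2.20.

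Since the groups of these 9 genes do not overlap, leaving out a library could not turn their direction. Timp3, Adamts20 and Mmp12 kept an unadjusted p under 0.05 in all 4 of these fits, Adamts1 and Adamts4 in 3, Adamts17 and Mmp14 in 2, and Timp2 and Adamts10 in 1.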

How the data were processed

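The authors deposited raw read counts per gene symbol; all values are whole and library totals differ. Per the labels' protocols, TruSeq RNA libraries of total hippocampal RNA were sequenced as single reads. CASAVA 1.8.2, TopHat2 2.0.8b, HTSeq and build mm9 appear in the submitters' processing notes, while the series text names a human build. The annotation and strand setting used for counting are not given in the sources used here. Summary rows that name no gene were left out. Alignments without a unique place made up 38.5% to 47.7% of each library's total. Of the reads in genes, outside genes or ambiguous, 14.7% to 15.7% lay outside genes and 0.972% to 1.05% were ambiguous.

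edgeR 4.0.16 (R 4.3.3) was fitted to all genes passing filterByExpr, with TMM factors, genotype as the only term and Benjamini-Hochberg adjustment (threshold 0.05). Standard errors came from the F statistic. DESeq2 1.42.0, limma-voom (limma 3.58.1), other scalings and filters, a replicate block and leaving out each library were alternatives. The fit was tested on simulated counts. Replicates differed beyond sampling noise (chi-square per degree of freedom 17.4 in PELP1 FBKO and 23.3 in FLOXED), so no library was treated as a repeat deposit of another; this does not show that they are separate animals. RPKM used the longest GENCODE vM21 transcript. Promoters came from RefSeq, GRCm38.p6, for 31 of 45 genes matched by symbol. The spans of 7 set members overlap another listed gene in RefSeq. The genes and lists were chosen with earlier results of these data known. Genes with an unadjusted p under 0.05, the most abundant of each family, and up to 2 genes per list with the smallest p were named, and the rest summarised.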

Additional observations from a re-analysis of the deposited data

How the results depend on the processing

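The count of set members past the adjusted threshold was 0 by edgeR and stayed 0 with RLE size factors, limma-voom, a filter of at least 10 reads in all 4 libraries and a threshold of 0.10. It was 1 by DESeq2 (Timp3) and 1 without a count filter (Mmp12), and it ranged from 0 to 2 when single libraries were left out (0 without FLOXED 1). The replicate numbers are not known to pair the libraries. With the replicate block, 2 members (Timp3 and Mmp12) and 566 genes were called; same-numbered libraries deviated with a correlation of -0.14, and the crossed pairing block, added after seeing the data, called 1 member and 314 genes. Over all genes the edgeR count of 0 was 17 with RLE size factors, 22 with the 10-read filter, 359 without a count filter, 293 at a threshold of 0.10, 449 by DESeq2, and between 0 and 598 with 1 library left out. The median log2 fold change of the set, 0.18, was 0.28 over members passing the filter of 10 reads in all 4 libraries and lay between 0.25 and 0.31 with 1 library left out. The direction of 7 members turned when 1 library was left out. With 1 library left out, the log2 fold change ranged from -0.87 to 0.57 for Adamts13 and -0.38 to 0.73 for Adamts2, -0.046 to 0.34 for Adamts3, -1.16 to 0.34 for Mmp19, -0.11 to 0.37 for Mmp2, -0.98 to 0.29 for Mmp23 and -2.98 to 0.20 for Mmp3. The direction turned without FLOXED 1 for Adamts13, Adamts2, Mmp2 and Mmp3, without FLOXED 2 for Mmp23, and without PELP1 FBKO 1 for Adamts2, Adamts3, Mmp19, Mmp23 and Mmp3. The cause was not tested. With 1 library left in a group, that library is assumed to vary like the others. Depth limits the 12 untested members and those with under 100 reads in a library.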
